A study of Neurospora crassa OR74A with 15 samples.

Results

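One RNA-seq library from the filamentous fungus Neurospora crassa moved to xylan was set against 3 libraries moved to pectin. A gene was counted as higher on xylan when its level there was at least 4 times the highest of the 3 pectin levels and at least 50 FPKM (fragments scaled by transcript length and by the mapped total of the library). It was counted as higher on pectin when the lowest pectin level was at least 4 times the xylan level and the highest pectin level was at least 50 FPKM. By this rule 91 genes were higher on xylan and 187 were higher on pectin, 278 in all, of 6524 genes that reached 50 FPKM in at least 1 of these 4 libraries and of 9733 genes measured.

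All cultures were wild-type mycelia of strain FGSC 2489, started from conidia 10 days old and shaken for 16 h in light in salts with 2% sucrose, then washed without carbon and moved for 4 h to a new medium. The new carbon source was 2% xylan (1 library), 1% pectin (3), 1% orange peel powder, which is rich in pectin (2), 2% Avicel, a microcrystalline cellulose (3), 2% sucrose (3) or none (3). The labels give the xylan, pectin and orange peel powder libraries as this study's and credit the other 9 to an earlier publication, and wherever the 2 sets are put side by side the study and the carbon source cannot be told apart. Polysaccharide and concentration cannot be told apart between xylan at 2% and pectin at 1%. The design text calls the replicates biological and says that xylan had a single library, so no difference between xylan and pectin was tested and each is a description of these 4 libraries. In RNA from whole cultures, fewer cells of a type and less RNA per cell cannot be told apart.

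Xylan is a chain of xylose units with side groups of arabinose and uronic acids. Secreted xylanases cut the chain, and beta-xylosidases and side-chain enzymes release the sugars. In fungi xylose is reduced to xylitol, oxidised to xylulose and phosphorylated, and then enters the pentose phosphate pathway. Pectin is built on galacturonic acid, with side chains of arabinose and galactose. It is opened by polygalacturonases, lyases and rhamnogalacturonan hydrolases, and fungi break galacturonic acid down to pyruvate and glycerol. Neurospora, which colonises dead plant material, has enzymes for both polymers and holds many of them at low levels when sucrose is present.

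The sequencing depth of the 4 libraries is unknown. The xylan library listed 1871 genes at 0 against 953 to 1029 in the pectin libraries, and the first percentile of its values above 0, as FPKM times kilobases, was 7.94 against 1.00 to 1.22, both of which move with a lower depth. At 719 genes the xylan library was at 0 while all pectin libraries were above it, and 704 of these stayed under 50 FPKM on pectin and so were outside the rule. The label of mycelia was checked with 8 genes of conidia and aerial hyphae, the other cell types such cultures can hold. Their summed level was 26101 FPKM on xylan, within the 16037 to 41888 FPKM of the pectin libraries and below the 345618 to 384354 FPKM of the libraries without carbon. On xylan con-6 and eas made up only a small part of that sum, so other markers of the 8 held most of it. Taken singly, 6 of the markers reached 50 FPKM, and on xylan 0 of these lay above the range of the pectin libraries. Below that range lay 3 of them (50%), con-6 and eas included, against 41.3% of all genes reaching 50 FPKM. The marker con-13 was listed at 0 on xylan and lay at 3.26 to 4.45 FPKM on pectin, and the part of these cells in the results was not tested.

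Most genes kept a similar level on both polymers. Of the genes reaching 50 FPKM, 23.3% lay inside the pectin range on xylan, 35.4% above it and 41.3% below it. Within 2-fold of the range lay 88.2%, and the median log2 ratio of xylan to the pectin mean was -0.06. The 91 genes higher on xylan were 1.39% of the genes reaching 50 FPKM, and the 187 higher on pectin were 2.87%. Across the 6524 genes Pearson's r of log2 levels was 0.814 to 0.821 between xylan and each pectin library and 0.960 to 0.980 between pectin libraries, where genes are not independent replicates. The genes past 4-fold held unequal shares of the measured RNA, as the rule requires. Genes higher on xylan held 9.32% of the summed FPKM of the xylan library and 0.411% to 0.473% of that of the pectin libraries. Genes higher on pectin held 9.86% to 11.9% on pectin and 0.798% on xylan.

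**Figure D1:**
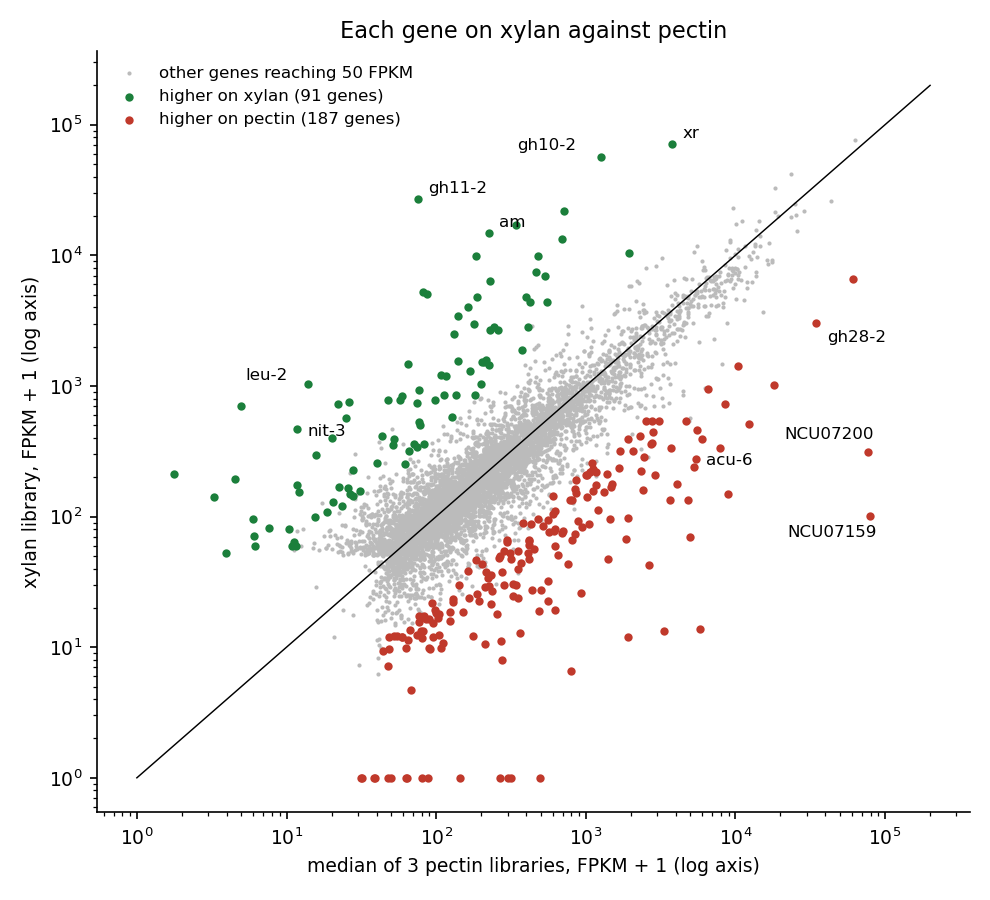
Level of each gene in the xylan library (y axis) against the median of the 3 pectin libraries (x axis), both as FPKM + 1 on log axes, with the line of equal level. Green points are the 91 genes higher on xylan, red points the 187 genes higher on pectin, 15 of which are listed at 0 on xylan, and grey points the other genes that reached 50 FPKM.

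The rule used the levels of these 4 libraries, so their ratios and spread are a description of the members only. The median ratio of xylan to the nearest pectin library was 9.09 among the genes higher on xylan, while the highest pectin library was a median of 1.44 times the lowest for the same genes. Among the 172 genes higher on pectin with a xylan level above 0, the median ratio was 6.11, and over all 187 the pectin libraries spanned a median of 1.36-fold. A ratio of at least 10 was reached by 42 genes higher on xylan and by 51 higher on pectin. The pectin libraries differed by more than 4-fold for 2 genes of the first set and 7 of the second. NCU01830 had the widest spread, at 104, 269 and 2935 FPKM on pectin against 10.1 on xylan.

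Genes close to the threshold differed little across it. Just inside lay NCU09176, at 4.02 times the highest pectin level, and the mating-type gene matA-1, at 4.11 times. Just outside lay NCU00798 and the arginine synthesis gene arg-5, both at 3.86 times. On the pectin side NCU06960 and NCU02244 were both 4.04 times lower on xylan than in the lowest pectin library, and NCU03648 and NCU08183 missed the threshold at 3.998 and 3.9997 times.

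Xylanase genes were among the genes with the greatest difference. The xylanase gene gh11-2 (NCU07225, contig 10.5, positions 6198659 to 6199980) was at 26982 FPKM on xylan and at 79.5, 74.3 and 42.4 FPKM in the 3 pectin libraries. This was 339 times the highest pectin level, the largest ratio of any gene higher on xylan. The xylanase gene gh10-2 (NCU08189, contig 10.3, positions 4598536 to 4599913) was at 57021 FPKM on xylan against 1261, 1249 and 1458 on pectin, 39.1 times the highest. The xylanase gene gh10-1 was at 2574 FPKM on xylan and at 1165, 945 and 625 on pectin, above all pectin libraries by 2.21 times and so outside the rule.

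Other xylanase genes went the other way. For gh10-3 the xylan level was 20.2 FPKM and the pectin levels were 217, 233 and 289, a ratio of 10.7 in favour of pectin. Another, gh11-1, was at 379 FPKM on xylan and 2214, 1944 and 1443 on pectin, 3.80 times below the lowest. The xylanase gene gh10-4 was listed at 0 on xylan and stayed at or under 1.86 FPKM on pectin. Within this enzyme class, gh10-2 and gh11-2 were thus far above pectin and gh10-3 and gh11-1 below it.

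The list of 16 xylan degradation genes, put together from general knowledge of the fungus, held 7 genes higher on xylan and 4 higher on pectin among 15 that reached 50 FPKM. The median log2 ratio of the list was 2.33, against -0.06 over all genes reaching 50 FPKM. Beside gh10-2 and gh11-2, the genes higher on xylan were NCU01900 (17073 FPKM against 332 to 376), NCU05159 (7500 against 284 to 567), NCU09652 (6932 against 438 to 534), NCU04870 (4377 against 260 to 653) and NCU09664 (155 against 15.8 to 32.1). Beside gh10-3, those higher on pectin were NCU09775 (359 FPKM on xylan against 2548 to 3315), NCU07351 (156 against 1031 to 1346) and NCU09491 (207 against 992 to 1146). NCU02343 was above the pectin range at 22986 FPKM against 7976 to 13199, and the glycoside hydrolase gene gh3-7 at 2893 against 374 to 918, both by less than 4-fold. Files and gene table give no product name for the genes shown by identifier alone, so their role rests on the list.

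**Figure D2:**
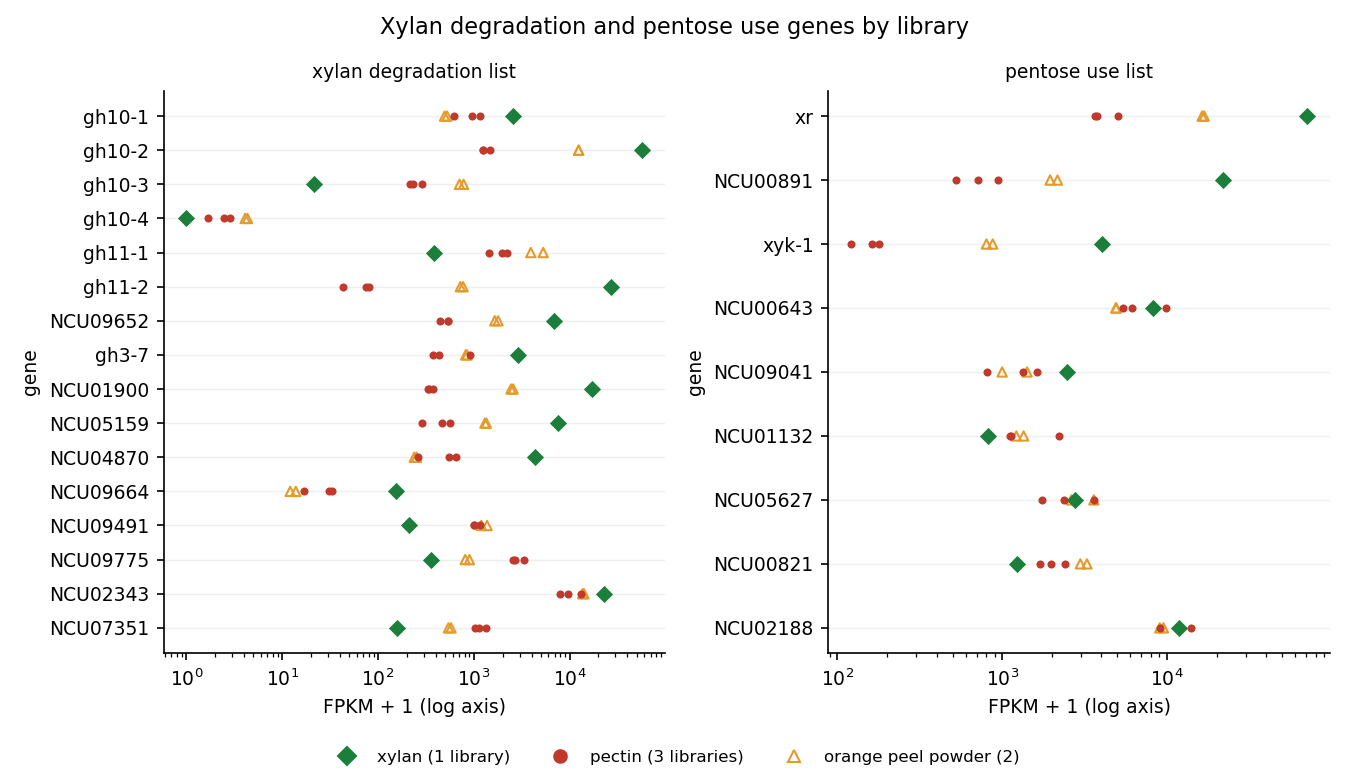
Level of every measured gene of the xylan degradation list (left) and the pentose use list (right) as FPKM + 1 on a log axis. Green diamonds are the xylan library, red dots the 3 pectin libraries and open triangles the 2 orange peel powder libraries. For gh10-2, gh11-2, xr and xyk-1 the diamond lies to the right of all other points.

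Genes of the early steps of xylose use were also far higher on xylan. The gene xr (NCU08384, contig 10.1, positions 5518647 to 5520522), which encodes xylose reductase, had the highest level of all genes higher on xylan, at 70613 FPKM against 3641, 3746 and 5072 on pectin. Xylulokinase, which phosphorylates xylulose, is encoded by xyk-1 (NCU11353, contig 10.3, positions 1247482 to 1249619), and it lay at 4019 FPKM against 120, 162 and 178. NCU00891 of the same list was at 21814 FPKM on xylan and 526, 717 and 939 on pectin. These 3 genes were 13.9, 22.6 and 23.2 times above the highest pectin library, and none of the others among the 9 pentose use genes met the rule.

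The remaining pentose genes were at high levels on both polymers. NCU02188 was at 11812 FPKM on xylan against 9087 to 13916 on pectin, NCU00643 at 8191 against 5408 to 9872, and NCU05627 at 2765 against 1732 to 3600, all inside the pectin range. NCU09041 was above the range at 2471 FPKM against 807 to 1624. NCU01132 and NCU00821 were below it, at 816 FPKM against 1115 to 2202 and at 1223 against 1706 to 2397. The median log2 ratio of this list was 0.20, so the high genes were a part of the list and not its common level.

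In the pentose phosphate pathway, which takes up xylulose phosphate, all 4 listed genes were above the pectin range, and 1 met the rule. NCU02136 was at 10402 FPKM on xylan against 1872, 1951 and 1984 on pectin, and NCU01328 at 9582 against 3335, 3207 and 3058. The gene ppm-2 was at 7750 FPKM against 5972 to 6601 and NCU09111 at 2613 against 1720 to 2427. Of all genes reaching 50 FPKM, 35.4% were above the pectin range.

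Sugar transporter genes differed by gene. The gene cdt-2 (NCU08114), which encodes a transporter of cellodextrins, was at 9822 FPKM on xylan against 311, 482 and 732 on pectin, 13.4 times the highest. Its relative cdt-1 was below the pectin range, at 267 FPKM against 815, 1172 and 1283. NCU01633 of the glucose transport list was at 26.4 FPKM on xylan and at 501, 1382 and 217 on pectin, 8.21 times below the lowest; the pectin libraries themselves were far apart. The glucose transporter gene hgt-1 was inside the pectin range at 18445 FPKM against 13918 to 18934.

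Cellulose degradation genes were above pectin in part, mostly by less than 4-fold. Of 22 listed genes 17 reached 50 FPKM, 11 of these (64.7%) were above the pectin range and 5 (29.4%) below it. The median log2 ratio was 0.93. Of all genes reaching 50 FPKM, 35.4% were above the range and 41.3% below it. The gene cdt-2 was the only one that met the rule. The cellobiohydrolase gene cbh-1 was at 246 FPKM on xylan and 71.9 to 139 on pectin, against 86756 to 186620 FPKM on Avicel in the earlier study. The endoglucanase gene gh5-1 was at 246 FPKM on xylan and 61.9 to 180 on pectin, and the Avicel libraries held 32852 to 68101. By contrast gh11-2 was at 84185 to 126366 FPKM on Avicel, above its xylan level, and the xylan level of gh10-2 exceeded its 12303 to 53692 FPKM on Avicel.

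The list of regulator genes gave no member. Of the 11 listed regulators 10 reached 50 FPKM, with 3 (30%) above the pectin range and 5 (50%) below it. Among all genes reaching 50 FPKM, 35.4% were above the range and 41.3% below it. Only 1.39% of those met the rule on the xylan side and 2.87% on the pectin side, so a list of this size can well hold none. The gene xlr-1, which encodes the known activator of xylanase genes in this fungus, was at 247 FPKM on xylan, below the 298 to 380 FPKM on pectin. The cellulase activator genes clr-1 and clr-2 were at 358 FPKM against 173 to 249 and at 14.5 FPKM against 16.3 to 40.7. The carbon catabolite repressor gene cre-1 was inside the pectin range, at 480 FPKM against 249 to 527.

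Genes higher on pectin were led by 2 genes without a symbol. NCU07159 (contig 10.5, positions 6393940 to 6395650) was at 79920, 92609 and 68186 FPKM on pectin and 99.8 on xylan, the largest ratio above 0 in the set at 683. NCU07200 (contig 10.5, positions 6261934 to 6263231) was at 76726, 80822 and 64441 FPKM on pectin against 312 on xylan, 207 times lower. These were also the 2 highest levels on pectin among the genes of this set. NCU07536 and NCU05156 followed, at 5707 to 6945 FPKM against 12.7 and at 3140 to 4110 against 12.2.

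Further down the ratio list the genes were again mostly without a symbol. NCU08739 (1469 to 1927 FPKM on pectin against 11.0 on xylan) and NCU07923 (705 to 838 against 5.58) had ratios above 100. The first percentile of values above 0 was 4.20 FPKM in the xylan library and 0.774 to 0.884 FPKM in the pectin libraries. Ratios over xylan values close to that floor, such as 5.58 FPKM, are therefore imprecise. NCU08397, NCU04430, NCU09992, NCU02338, the gene app, NCU11405, NCU05908, NCU09788 and NCU03255 had ratios from 25.9 to 67.5. Of the 187 genes higher on pectin 21 had a symbol, and of the 91 higher on xylan 26 had one. Other genes at high levels on pectin were NCU10040 (35169 to 64843 FPKM against 6628), NCU00995 (16994 to 19212 against 1015) and NCU01045 (5638 to 9282 against 726).

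The 15 genes listed at 0 on xylan have no ratio. The highest were NCU03512 (551, 491 and 321 FPKM on pectin), NCU01056 (397, 317 and 246) and NCU07088 (300, 371 and 251). The depth signs of the xylan library given above bear on these zeros, and their part in them was not tested.

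Pectin degradation genes were lower on xylan nearly throughout. Of 15 listed genes 14 reached 50 FPKM, 9 of them were higher on pectin by the rule, 13 were below the pectin range (92.9%, against 41.3% of all genes reaching 50 FPKM), and 1 was higher on xylan. The median log2 ratio of the list was -2.75. Polygalacturonase gene gh28-2 (NCU06961, contig 10.4, positions 4670149 to 4671713) was at 42839, 34758 and 34637 FPKM on pectin and 3017 on xylan. Its relative gh28-1 (NCU02369) was at 754, 561 and 846 FPKM on pectin and 42.2 on xylan. The rhamnogalacturonase gene asd-1 was at 1178, 1018 and 820 FPKM against 140. Ratios to the lowest pectin library were 11.5, 13.3 and 5.84.

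Among the genes shown by identifier, NCU08176 (7564 to 11375 FPKM on pectin against 331 on xylan) and NCU06326 (11430 to 14755 against 509) had ratios of 22.8 and 22.5. NCU09976 (339 to 370.5 against 22.6), NCU09170 (4946 to 6940 against 459), NCU02654 (962 to 1144 against 217) and NCU10045 (5837 to 10984 against 1426) completed the 9. NCU10045, at 4.09 times, was short of 4-fold under each of 3 other scalings of the libraries. Below the pectin range by less than 4-fold were NCU07326 (117.5 FPKM against 457 to 600), NCU00972 (949 against 1413 to 3138), NCU05965 (2217 against 3562 to 6115) and the glycoside hydrolase gene gh35-1 (1474 against 3104 to 5801).

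One gene of the pectin list ran against the rest. NCU09924 was at 2842 FPKM on xylan and at 408, 390 and 644 on pectin, 4.41 times the highest. NCU00852 was listed at 0 in all 4 libraries. The xylan level of gh28-2 was itself above the 337 to 684 FPKM of the libraries without carbon in the earlier study.

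**Figure D3:**
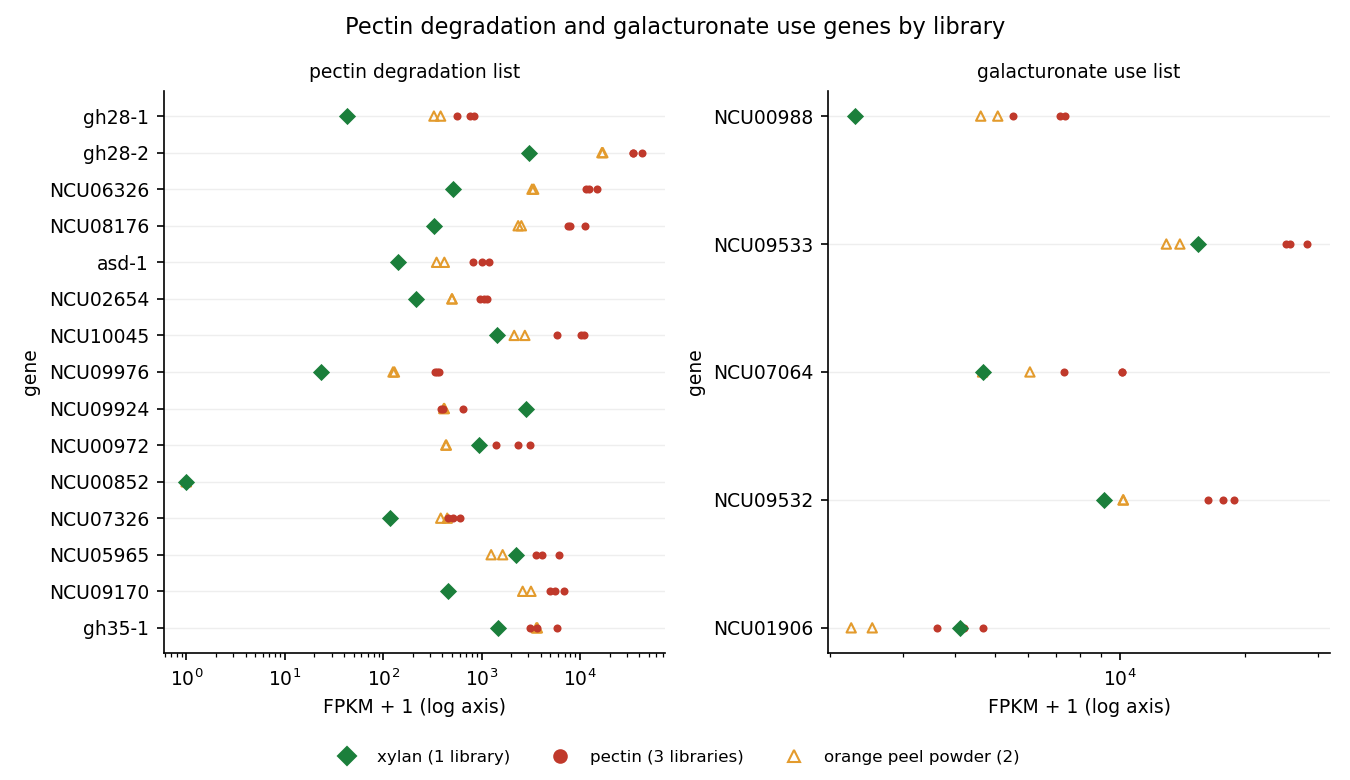
Level of every measured gene of the pectin degradation list (left) and the galacturonate use list (right) as FPKM + 1 on a log axis, with symbols as in the plot of the xylan lists. The green diamond of the xylan library lies left of the pectin dots for 13 genes on the left and 4 on the right, and right of them for NCU09924.

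Galacturonate use genes were lower on xylan by less than the rule requires. Of the 5 listed genes none met it and 4 were below the pectin range, where 41.3% of all genes reaching 50 FPKM lay. NCU00988 was at 2293 FPKM on xylan and 7349, 7158 and 5515 on pectin, 2.40 times below the lowest. NCU09533 was at 15461 FPKM against 25082 to 28242, NCU09532 at 9127 against 16268 to 18823, and NCU07064 at 4666 against 7346 to 10093. NCU01906 was inside the range at 4105 FPKM against 3612 to 4676. On xylan too, all 5 were above their levels without carbon in the earlier study, where NCU09533 was at 132 to 423 FPKM, NCU07064 at 155 to 257 and NCU00988 at 1055 to 1197.

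Genes of amino acid synthesis were higher on xylan as a group. Of 60 genes with a symbol of an amino acid requirement, all reached 50 FPKM and 49 (81.7%) were above the pectin range, against 35.4% of all genes reaching 50 FPKM. The median log2 ratio was 0.91, 3 were below the range, and 8 met the rule. The leucine synthesis gene leu-2 was at 1032 FPKM on xylan and 10.8, 12.97 and 28.1 on pectin, 36.8 times the highest. The gene ilv-2 of branched-chain amino acid synthesis was at 6332 FPKM against 177, 228 and 426, and leu-1 at 1180 against 96.0, 116 and 183. These 3 genes thus separated xylan from pectin by 6.47-fold or more.

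The other 5 genes were above the highest pectin library by up to 6.58 times, the ratio of met-7. The carbamoyl phosphate synthetase gene arg-3 was at 774 FPKM on xylan against 56.3, 56.0 and 143 on pectin. The methionine pathway genes met-7 and met-6 were at 388 FPKM against 44.6 to 59.0 and at 499 against 61.8 to 105. The genes pro-4 and ilv-4 were at 531 FPKM against 66.0 to 91.4 and at 1308 against 163 to 229. In 7 of the 8 genes pectin library 3 had the highest of the pectin levels. Without that library 118 genes, in place of 91, were higher on xylan over the whole genome.

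Nitrogen genes gave an opposed pair. The gene am (NCU01195, contig 10.5, positions 3200932 to 3202838) encodes the NADP-dependent glutamate dehydrogenase that builds glutamate from ammonium, and it was at 14755 FPKM on xylan against 194, 330 and 223 on pectin. The gene gdh-1 (NCU00461, contig 10.3, positions 3944256 to 3949945) encodes the NAD-dependent enzyme that breaks glutamate down, and it was at 209 FPKM on xylan against 2888, 2621 and 5116 on pectin. Ratios were 44.7 in favour of xylan for am and 12.6 in favour of pectin for gdh-1. The nitrate reductase gene nit-3 was at 464 FPKM against 10.7, 9.90 and 11.3, and the nitrite reductase gene nit-6 at 2662 against 51.9, 257 and 228. The regulator gene nit-2 and the glutamine synthetase gene gln-1 were above the pectin range by 1.63 and 2.12 times.

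Gluconeogenic genes were lower on xylan. All 5 listed genes of the glyoxylate cycle and gluconeogenesis were below the pectin range, 4 of them met the rule, and the median log2 ratio was -2.70. Of all genes reaching 50 FPKM, 41.3% were below the range and 2.87% were higher on pectin by the rule. The gene acu-6 (NCU09873) encodes phosphoenolpyruvate carboxykinase and was at 6172, 5436 and 5374 FPKM on pectin against 275 on xylan. The isocitrate lyase gene acu-3 was at 801, 707 and 489 FPKM against 76.2, and the malate synthase gene acu-9 at 1175, 1259 and 967 against 173. The fructose bisphosphatase gene fbp-1 was at 988, 842 and 776 FPKM against 162. The acetyl-CoA synthetase gene acu-5, at 921 to 1232 FPKM against 910, was only just below the range. None of the 12 glycolysis and fermentation genes met the rule, where 1.39% of all genes reaching 50 FPKM met it on the xylan side. Of the 11 that reached 50 FPKM, 6 (54.5%) were above the range, against 35.4% of all genes reaching 50 FPKM. Among these 6 was the glyceraldehyde phosphate dehydrogenase gene gpd-1, at 41773 FPKM against 19602 to 27005.

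**Figure D4:**
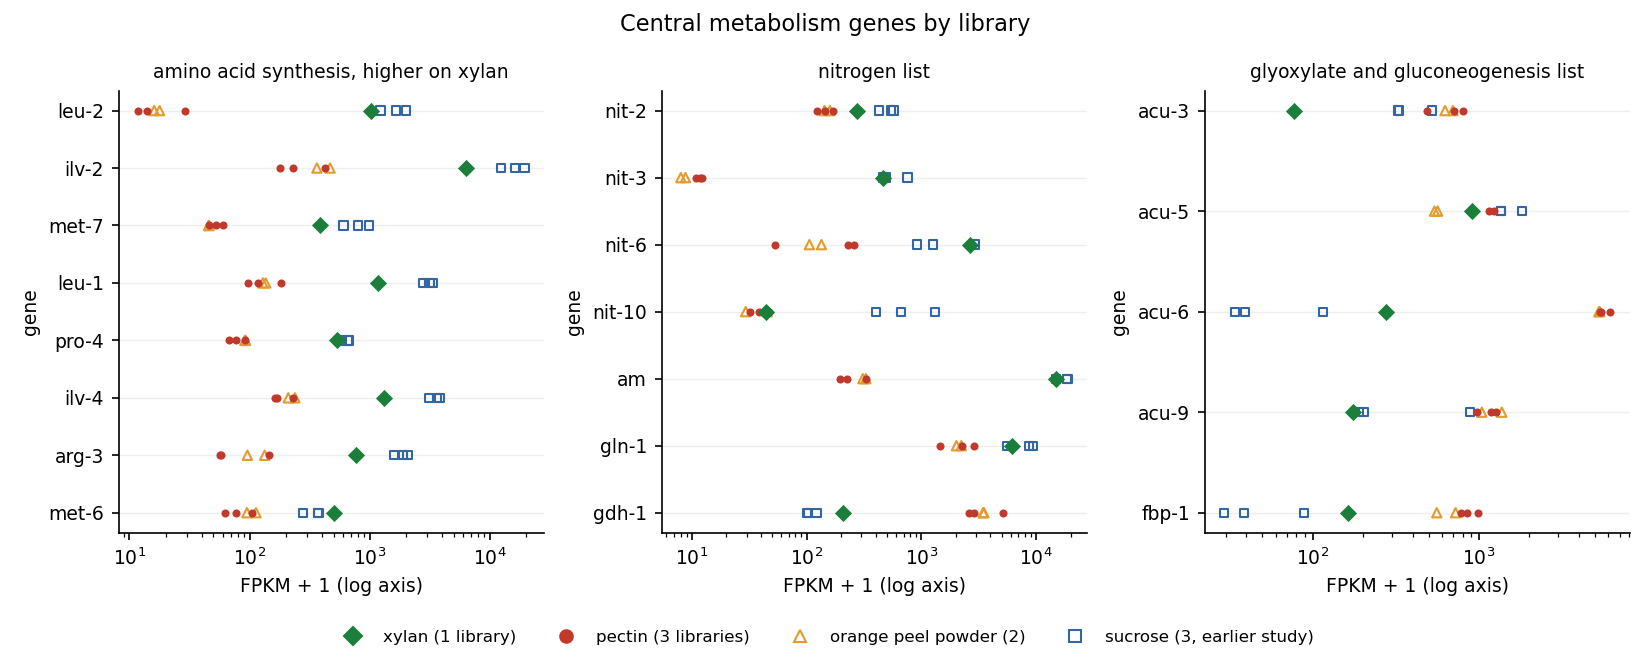
Level as FPKM + 1 on log axes of the 8 amino acid synthesis genes higher on xylan (left), the nitrogen list (middle) and the glyoxylate and gluconeogenesis list (right). Green diamonds are xylan, red dots the 3 pectin libraries, open triangles the 2 orange peel powder libraries and open blue squares the 3 sucrose libraries of the earlier study. For am and nit-3 the xylan library lies with the sucrose libraries, and for acu-6 it lies between sucrose and pectin.

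Several other named genes stood apart on xylan. The phosphate permease gene pho-5 was at 726 FPKM against 13.9 to 23.5, and the alkaline phosphatase gene pho-2 at 296 against 14.02 to 16.2. Pheromone precursor gene ccg-4 was at 748 FPKM on xylan against 17.0 to 25.6, and matA-1 at 58.6 against 6.74 to 14.3. The latter missed the rule with 1 FPKM added to all values. The formate dehydrogenase gene fdh was at 2847 FPKM against 218 to 372, the trehalase gene tre-1 at 1521 against 205 to 323, and the sodium pump gene ena-1 at 1897 against 310 to 456.

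On the pectin side the alternative oxidase gene aod-1 was at 239, 584 and 448 FPKM against 55.9 on xylan. The neutral amino acid permease gene mtr was at 636, 844 and 956 FPKM against 72.1. The conidiation gene con-6 was at 1158, 692 and 400 FPKM against 74.3, and of the 8 conidiation markers it was the only one that met the rule. The hydrophobin gene eas was at 969 FPKM on xylan and 6245, 7201 and 2025 on pectin, below the range by 2.09 times. Genes of the cytosolic ribosome (9 with a symbol), respiratory complex I (29) and the ATP synthase and vacuolar ATPase (15) gave no member in either direction. Of all genes reaching 50 FPKM, 1.39% were higher on xylan by the rule and 2.87% higher on pectin.

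Some members lay next to each other on a contig. A neighbouring gene of the same set was found for 19 of the 91 genes higher on xylan (20.9%), while 1.55% of the other genes reaching 50 FPKM had a neighbour in that set. For genes higher on pectin the figures were 38 of 187 (20.3%) and 3.14%. The longest run on xylan held 5 genes on contig 10.4, NCU10110 (2502 FPKM against 129 to 159), NCU04401 (9855 against 152 to 185), NCU04400 (2982 against 171 to 230), NCU10107 (4408 against 395 to 496) and NCU10106 (850 against 85.8 to 181). A pair of further runs held a xylanase gene: gh11-2 beside NCU07224 (212 FPKM against 0.716 to 0.877) and gh10-2 beside NCU07510 (194 against 1.53 to 7.78). NCU00891 lay beside met-6, and cdt-2 beside NCU08113. On the pectin side the longest run held 4 genes on contig 10.3, NCU11405, NCU09506, NCU09505 and NCU09504, and gh28-2 lay between NCU06960 and NCU11766. How reads shared by overlapping neighbours were counted is not stated by the labels or headers.

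The remaining genes with the largest ratios or highest levels on xylan had no symbol and were in none of the lists. NCU04169 was at 699 FPKM on xylan and 3.08 to 5.04 on pectin, and NCU06384 at 139 against 1.32 to 2.42. NCU08752 was at 5196 FPKM against 78.7 to 81.7 and NCU00292 at 5052 against 75.2 to 94.1. NCU09705 was at 13433 FPKM against 581 to 830. In all 5 the xylan level was at least 16.2 times the highest pectin level.

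Orange peel powder, the other pectin-rich source of this study, gave levels that differed by gene, shown here for genes chosen after their values were seen. The gene xr was at 16344 and 16809 FPKM on orange peel powder, xyk-1 at 801 and 875, gh10-2 at 12401 and 12428 and gh11-2 at 772 and 723, all above pectin and below xylan. Other genes of the xylan list were below the pectin range on orange peel powder, such as NCU04870 (238 and 251 FPKM) and NCU09664 (12.9 and 11.1). The genes am (309 and 328 FPKM), nit-3 (7.81 and 7.04) and leu-2 (15.1 and 16.8) stayed within or below the pectin range. Among genes higher on pectin, NCU07159 was at 42811 and 48019 FPKM, gh28-2 at 16724 and 17097, acu-6 at 5325 and 5260 and gdh-1 at 3453 and 3512, all far above the xylan level. Comparisons of xylan and of orange peel powder with pectin share the pectin libraries, so no overlap between them is counted.

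The members were then read in comparisons of the earlier study, sucrose against no carbon and Avicel against no carbon. The rule used no level from these groups. All 278 members were among the 8700 genes tested with limma on log2(FPKM + 1). Calls required an adjusted p (Benjamini-Hochberg) under 0.05 together with a log2 fold change of at least 1 in either direction, and "rose" and "fell" stand for such calls. These tests concern cellulose, sucrose and starvation, not xylan. The fit took each gene's variance from every replicated group, the pectin libraries of the rule included. The adjusted p is therefore not free of the rule's values. With only the 2 groups compared in the fit, Avicel calls came to 34 for genes higher on xylan, in place of 44. For genes higher on pectin they came to 22, in place of 38. Over all genes tested they came to 334, in place of 554. Sucrose calls came to 79 and 116 for these sets, in place of 80 and 126.

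On Avicel 42 of the 91 genes higher on xylan rose and 2 fell. Among all genes tested 4.03% rose and 2.33% fell, and among those reaching 50 FPKM 4.45% rose and 1.87% fell, so the share of 46.2% that rose was far from the background. The median log2 fold change of the 91 was 1.18, against -0.09 for all genes reaching 50 FPKM. The gene gh11-2 rose by 9.36 on the log2 scale (SE 1.06, adjusted p = 0.000107), gh10-2 by 6.96 (SE 1.04, adjusted p = 0.00104) and xr by 7.96 (SE 0.45, adjusted p = 2.1e-07). For xr this was a change from 70.6, 99.6 and 106 FPKM without carbon to 8540, 36991 and 37166 on Avicel. The genes xyk-1 (2.61), cdt-2 (6.76), gh3-8 (4.02), fdh (1.55), am (1.12) and nit-6 (2.30) were the other ones with a symbol that rose.

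Genes higher on pectin moved in both directions on Avicel. Of the 187, 21 rose (11.2%) and 17 fell (9.09%), both above the background shares just given. The median log2 fold change was -0.10, close to the -0.09 of all genes reaching 50 FPKM. NCU08176 of the pectin list rose by 6.34 (SE 0.27, adjusted p = 1.5e-08), from 16.3 to 21.4 FPKM without carbon to 1067 to 2411 on Avicel, and gh10-3 and asd-1 rose by 4.54 and 3.61. The genes acu-3 (-2.31), fbp-1 (-1.70) and acd-2 (-1.13) were the ones with a symbol that fell. With only the 2 groups compared in the fit, 13 of the 187 rose and 9 fell. Calls over all genes tested then came to 334, in place of 554. Background shares that rose and fell were not drawn from that fit, so its 2 counts are not set against them.

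On sucrose the genes higher on xylan split. Of the 91, 36 rose (39.6%) and 44 fell (48.4%), while 18.0% of all genes tested rose and 34.2% fell, and 22.3% of those reaching 50 FPKM rose and 25.3% fell. All 8 amino acid synthesis members rose, among them ilv-2 by 7.78 (SE 0.40, adjusted p = 1.6e-08), arg-3 by 6.82 (SE 0.48, adjusted p = 1.4e-07) and leu-2 by 6.21 (SE 0.43, adjusted p = 1.2e-07). The nitrogen genes am (3.38), nit-3 (3.08) and nit-6 (2.27), the phosphate permease gene pho-5 (1.89) and the gene mig-11 (3.48) completed the 13 with a symbol that rose. Of all 60 amino acid synthesis genes 54 rose on sucrose.

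Those that fell on sucrose included gh10-2 (-5.12), gh11-2 (-4.40), cdt-2 (-4.94), xyk-1 (-1.80), fdh (-5.23), tre-1 (-5.48) and ccg-4 (-5.99). The gene xr was not called, at 63.0, 83.2 and 64.4 FPKM on sucrose against 70.6, 99.6 and 106 without carbon. Of the genes higher on pectin 106 fell (56.7%) and 20 rose (10.7%). Among all genes reaching 50 FPKM 25.3% fell and 22.3% rose, so the share that rose was below the background. Those that fell included con-6 (-9.92) and gh28-2 (-9.07), the latter listed at 0 in all 3 sucrose libraries, and gdh-1 fell by 4.60 on the log2 scale (SE 0.48, adjusted p = 4.1e-06). The genes mtr and gh28-1 rose by 3.85 and 2.16.

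The 2 comparisons share the 3 libraries without carbon, so no overlap between their calls is given. Levels on xylan are set beside those of the earlier study for a pair of genes, as values from different studies. For am the xylan library was at 14755 FPKM and the sucrose libraries at 14824, 18741 and 18475. For cdt-2 it was at 9822 FPKM against 34040, 64599 and 70796 on Avicel and 5.58, 49.7 and 11.6 on sucrose. Whether the levels on xylan differ from those of the earlier study was not tested.

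**Figure D5:**
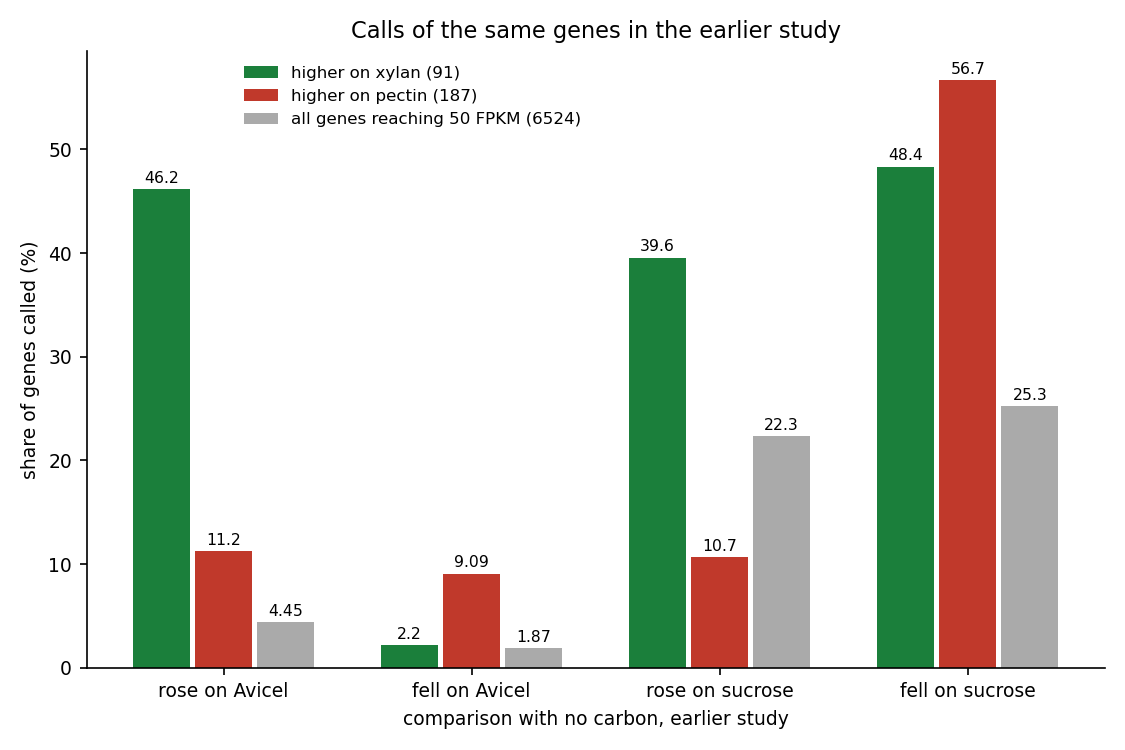
Share of genes (y axis, percent) that rose and that fell in each comparison of the earlier study (x axis), for the 91 genes higher on xylan (green), the 187 higher on pectin (red) and all 6524 genes reaching 50 FPKM (grey). On Avicel the green bar of genes that rose stands at 46.2% beside 4.45% of all genes, and on sucrose the green bars stand at 39.6% and 48.4%.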

How the data were processed

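Messenger RNA was selected with oligo dT beads and made into cDNA with random primers, per the labels' protocols. The authors deposited FPKM values, 1 table per library, and 1 table of pooled FPKM, which no result rests on. Per the submitters' processing notes the tools were TopHat 1.2.0, Cufflinks 0.9.3 and Cuffdiff, with no role stated. Neither labels nor headers name the build or the gene models behind the values. FPKM already corrects for transcript length and library size, so no reads could be counted and depth is unknown. The upper interval bound deposited beside FPKM exceeded the value by 2 square roots of it, to within 1%, for 89.6% of xylan values above 10 FPKM. For these values that bound so carries no depth.

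The 6 gene-level tables of this study hold identical rows. The 9 transcript-level tables of the earlier study were joined to them by identical coordinates (9733 of 9733 genes). Starts count from 0 in the tables and from 1 in the text. RefSeq's table of genes for NC12 held 9215 of the identifiers and gave 1113 of them a symbol. Near-identical paralogs may share reads.

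Limma 3.58.1 in R 4.3.3 was fitted with a variance trend to log2(FPKM + 1) of the 14 libraries of 5 replicated groups, on the 8700 genes whose mean reached 1 FPKM. Tests were two-sided. Fold changes on this scale understate changes of low genes. On simulated data with 100 genes changed by 1.5 and 100 by 3 log2 units the code called 89 and 100 of them. The simulated noise was normal and equally wide for every gene, so these rates do not apply to genes with a wider spread. Replicate numbers were not taken to pair libraries.

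The genes, lists and tests were chosen with earlier results of these data known. Named are, in each direction, the 15 members with the largest ratio above 0 and the 10 with the highest level, every gene of the xylan, pentose, pectin and galacturonate lists, up to 8 members and 4 of the highest genes of other lists, 2 genes on each side of each threshold, and the 3 highest members listed at 0. Other genes were named after their values were seen. Alternatives changed the fold, the minimum, the pseudocount, the scaling, the pectin reference, zeros, the join, the libraries in the fit and the replicates. No sequence is printed.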

Additional observations from a re-analysis of the deposited data

How the results depend on the processing

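The 4-fold rule gave 91 genes higher on xylan and 187 higher on pectin. A 2-fold rule gave 269 and 501 and an 8-fold rule 49 and 77, as a changed threshold must. The other 13 alternatives gave 80 to 118 and 128 to 258, and leaving out each pectin library in turn gave 97 to 118 and 196 to 224. NCU10045 was lost under upper-quartile, median-ratio and quantile scaling and with the interval bound nearest the other group, and NCU02654 with that bound. The gene matA-1 was lost with that bound, a 100 FPKM minimum and 1 or 10 FPKM added, aod-1 with that bound and 10 FPKM added, and NCU09664 with 10 FPKM added. Against the pectin mean, or without pectin replicate 3, gh11-1 became higher on pectin and gh3-7 higher on xylan.

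In the earlier study's comparisons, calls in either direction numbered 80 (sucrose) and 44 (Avicel) for genes higher on xylan and 126 and 38 for genes higher on pectin. The last of these came to 22 with only the 2 groups compared and to 24 with the 3 earlier groups; the cause was not tested. The other alternatives gave 77 to 82, 34 to 50, 113 to 132 and 27 to 46. Leaving out 1 replicate at a time gave 79 to 81, 41 to 49, 113 to 127 and 31 to 36. The fit with the 3 earlier groups, and the fit without Avicel replicate 1 and sucrose replicate 1 (80, 50, 129 and 46), were chosen after seeing the data. Avicel replicate 1 listed 1684 genes at 0, against 1036 and 1048 in the other Avicel libraries. For sucrose replicate 1 the count was 2341, against 1645 and 1842. The first percentiles of their values above 0, as FPKM times kilobases, were 8.40 and 7.16, each the highest of its group.

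With the replicate number as a block the calls came to 78, 38, 114 and 27, set against 79, 41, 115 and 24 for the same 3 groups without the block. Same-numbered libraries did not deviate together throughout: correlations of their deviations from the group means were -0.201, -0.313 and 0.451 between Avicel and no carbon, 0.181, 0.12 and 0.179 between Avicel and sucrose, and -0.116, -0.0949 and -0.02 between no carbon and sucrose. No test between xylan and pectin was run, since xylan had 1 library, and depth, unknown here, limits what a value of 0 on xylan can show.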
